A study of Homo sapiens with 9 samples.

Results

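Matrix proteases and their inhibitors were followed at the mRNA level in MDA-MB-231 cells treated with the copper chelator TEPA. The members were chosen by name from the count table: the matrix metalloproteinases (MMPs), the tissue inhibitors of metalloproteinases (TIMPs), the ADAM and ADAMTS families, the plasminogen activators PLAU and PLAT, the urokinase receptor PLAUR, and the pentraxin PTX3. They were 73 of the 59453 gene names, and 40 of them passed the expression filter and were tested. By role they comprised 16 secreted MMPs, 19 secreted ADAMTS proteases, 8 membrane MMPs, 12 ADAMs of the protease type, 8 ADAMs without protease activity, 2 ADAM pseudogenes, 4 TIMPs, 2 plasminogen activators, PLAUR and PTX3. MMP23A, counted among the membrane MMPs, is annotated as a pseudogene.

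MMPs, ADAMs and ADAMTS proteases are zinc enzymes that are made as inactive precursors. Secreted MMPs and ADAMTS proteases cut collagens, proteoglycans and other matrix proteins, membrane MMPs do so at the cell surface, and ADAMs mainly release growth factors, cytokines and receptors from the membrane. TIMPs bind the active site of MMPs and of some of the ADAM and ADAMTS proteases. TIMP2 in addition links the precursor of MMP2 to MMP14 on the cell surface, where it is activated. Urokinase (PLAU) and tissue plasminogen activator (PLAT) are serine proteases that turn plasminogen into plasmin, which degrades fibrin and can activate MMP precursors.

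The RNA came from MDA-MB-231, an established line of human triple-negative breast cancer (TNBC) cells grown as a single line in serum-containing medium. TEPA is a polyamine that binds copper ions. Untreated cells were compared with cells given it for 8 h or for 24 h. Each group had 3 libraries, and 1 untreated group served both times. The labels give the untreated group no time, so time under TEPA and time in culture cannot be told apart. The sample labels give TEPA at 8 mM, while the sequencing methods name a lower dose, so the dose is uncertain. No source says that the libraries came from separate cultures, and p-values therefore measure only the spread between these libraries, which may be technical.

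Total counts ran from 34633755 to 49342659 per library, and the members took between 0.238% and 0.303% of them. Markers of the line were present, with VIM at 3674 CPM (counts per 1000000 after scaling) and CD44 at 859 CPM in untreated cells, and the hormone receptor genes were at 0 for PGR and 0.155 CPM for ESR1. ERBB2 was detected at 81.4 CPM, and the epithelial genes CDH1 and EPCAM were at 0.624 and 1.13 CPM. The epithelial keratins KRT8 and KRT18 were at 405 and 301 CPM in untreated cells. CDH1 was higher at 24 h, at 3.19 CPM (log2 2.33 above untreated cells and 3.17 above 8 h). Of 6 markers of blood, endothelial and stromal cells, 3 passed the filter. Their summed level ran from 45.5 to 59.6 CPM in untreated cells, from 58.1 to 62.8 CPM at 8 h and from 118 to 126 CPM at 24 h. PDGFRB and PECAM1 fell at 8 h (log2 fold changes of -0.33 and -1.76) and rose at 24 h (1.47 and 1.18), the same directions as TIMP2, TIMP3 and TIMP4, COL1A1 rose at both times (1.25 and 0.40), and PTPRC, CDH5 and LUM stayed near 0. The part of these genes in the results that follow was not tested. In bulk RNA, fewer cells of a type and less RNA per cell cannot be told apart.

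Most tested members changed, and more of them fell than rose at 8 h. A change was called at an adjusted p under 0.05 in edgeR's quasi-likelihood test, with Benjamini-Hochberg adjustment over all 16556 genes tested. At 8 h, 19 members fell and 9 rose, so that 70% of the 40 were called, against 49.6% of all genes (24.5% lower and 25.2% higher). After 24 h, 13 fell and 11 rose, or 60% of the members, against 52.5% of all genes (26.8% lower and 25.7% higher). The median log2 fold change of the members was -0.22 at 8 h and -0.03 at 24 h, and that of all genes was 0 at both. With a log2 fold change beyond 0.5 as a further limit, 9 members fell and 5 rose at 8 h, or 35% against 17.8% of all genes (7.67% lower and 10.1% higher). The same limit left 7 falls and 6 rises at 24 h, or 32.5% against 18.7% (8.46% and 10.2%). Beyond a log2 fold change of 1 there were 5 falls and 3 rises at 8 h, where 2.45% of all genes fell and 4.37% rose, and 2 of each at 24 h, where 2.83% fell and 3.93% rose.

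Of the 40 tested members, 9 fell at both times (22.5% against 12.6% of all genes) and 4 rose at both (10% against 11.4%). The direction reversed for 7: 5 fell at 8 h and rose at 24 h, and 2 rose at 8 h and fell at 24 h (12.5% and 5% against 3.45% of all genes for each). Changes called at 8 h alone were 5 falls and 3 rises (12.5% and 7.5% against 8.46% and 10.3%). Between the times themselves, 16 members had risen and 11 had fallen by 24 h, or 67.5% of the members against 54.8% of all genes (26% higher and 28.8% lower). Of these, 10 rises and 6 falls were beyond 0.5, or 40% against 21.2% of all genes (10.4% and 10.8%). Beyond 1 there were 4 rises and 1 fall, against 4.13% and 3.83%. The rises beyond 1 included ADAMTS4 and MMP2, and the fall was ADAMTS14. Each of them passed the filter only with the groups where it was higher, so these counts are not independent of the filter. The CPM values of the 3 libraries did not overlap between groups for 29 members at 8 h, for 24 members at 24 h and for 30 members between the times, while the background was 57.8%, 57.2% and 62% of all genes. Because both times share the untreated libraries, their values are given side by side and were not correlated.

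**Figure D1:**
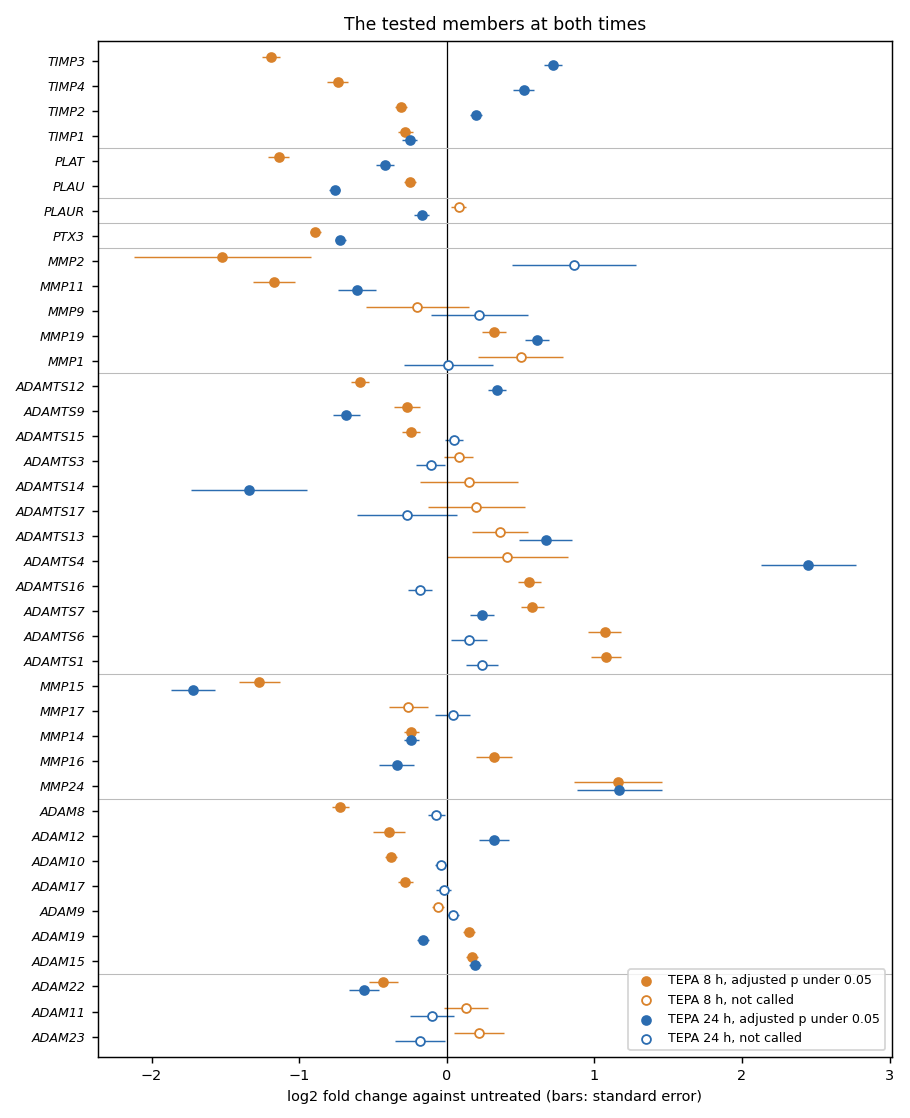
Log2 fold change against untreated cells (x axis) of the 40 tested members at 8 h (orange) and 24 h (blue), grouped by role, with standard errors as bars; filled points had an adjusted p under 0.05 in edgeR. TIMP3, TIMP4, TIMP2, ADAMTS12 and ADAM12 lie left of 0 at 8 h and right of it at 24 h, and PLAT, PLAU, PTX3, MMP11, MMP14, MMP15, ADAMTS9, ADAM22 and TIMP1 lie left of it at both.

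Summed over each class, the TIMPs moved most between the times. Their summed level was 782, 686 and 732 CPM in the untreated libraries, 506, 530.1 and 539 CPM at 8 h, and 860.4, 922 and 871 CPM at 24 h. The 8 h libraries were all below the untreated ones and the 24 h libraries all above them. The plasminogen activators went down in steps, from 428 ± 3.44 CPM (SD, n = 3) to 325 ± 3.44 at 8 h and 266 ± 12.5 at 24 h. Membrane MMPs, of which MMP14 made up 96%, went from 422 ± 29.9 CPM to 358 ± 1.2 and 354 ± 15.6 (SD, n = 3). Protease-type ADAMs had 1022 ± 22.7 CPM in untreated cells, 915 ± 2.91 at 8 h and 1041 ± 17.2 at 24 h. ADAMTS genes went the other way at 8 h, from 126 ± 3 CPM to 149 ± 0.219, and had 139 ± 3.16 at 24 h. Secreted MMPs had the lowest sum in every group, at 14.4 ± 1.11, 13.7 ± 0.476 and 16.9 ± 1.12 CPM, and the untreated and 8 h libraries overlapped. These sums are descriptions without a test.

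Levels of different genes can be compared only per length, as CPM per kb of exon. The length used joins all annotated exons of a gene, for example 15.979 kb for ADAM10 and 1.446 kb for TIMP1. The ratio and order below therefore depend on the annotation. On that scale the TIMPs together were at 0.999, 0.963 and 1.0 times the sum of all MMPs, protease-type ADAMs and ADAMTS genes in the untreated libraries. The ratio was 0.813, 0.833 and 0.844 at 8 h, and 1.1, 1.13 and 1.15 at 24 h. No library of one group reached the range of another. The ratio compares summed mRNA levels and is not a balance of inhibitors and their targets, since TIMPs bind only some of these proteases. The order in untreated cells was led by TIMP1 at 119.9 CPM per kb and PLAU at 115, followed by MMP14 at 87.6, TIMP2 at 58.4, ADAM8 at 46.6 and PTX3 at 43.5. The highest secreted metalloproteinase was ADAMTS15 at 5.06 CPM per kb, and the highest secreted MMP was MMP19 at 1.64.

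**Figure D2:**
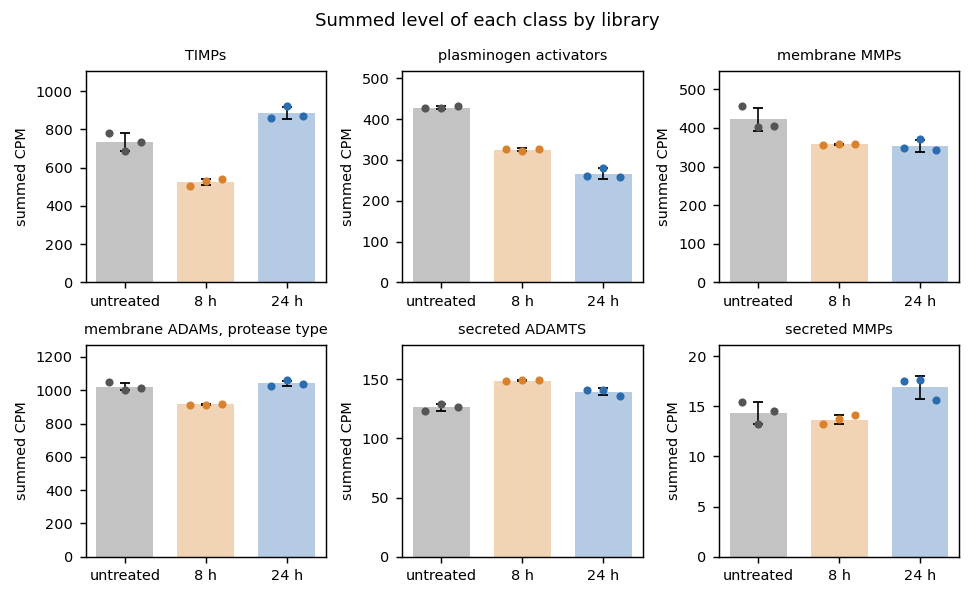
Summed CPM (y axis) of 6 classes in each of the 9 libraries (points), with the group mean as a bar starting at 0 and the SD as an error bar (n = 3). The TIMPs fell below the untreated range at 8 h and stood above it at 24 h, from 733 CPM to 525 and 885 CPM, while the plasminogen activators went from 428 to 325 and 266 CPM.

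All 4 TIMPs fell at 8 h, and all but TIMP1 were above the untreated level at 24 h. TIMP3, which is bound to the matrix and also inhibits ADAM17 and aggrecan-cutting ADAMTS proteases, had 205, 167 and 179 CPM in the untreated libraries, 75.9, 83.1 and 82.4 CPM at 8 h, and 294, 312 and 302 CPM at 24 h. No 2 groups overlapped. It was 3.76-fold higher at 24 h than at 8 h (log2 fold change 1.91, SE 0.06, adjusted p = 1.5e-11, edgeR). TIMP4 followed the same course at a lower level, with 12.9, 13.8 and 14.6 CPM, then 7.85, 8.91 and 7.92 CPM, then 19.9, 20 and 19.5 CPM. The 24 h libraries were 2.41-fold above those of 8 h (log2 1.27, SE 0.07, adjusted p = 1.6e-09, edgeR).

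TIMP2 changed less but in the same directions. Its values were 379, 342 and 367 CPM untreated, 283, 296 and 301 CPM at 8 h, and 408, 435 and 407 CPM at 24 h. The log2 fold change was -0.31 (SE 0.04, adjusted p = 3.3e-05, edgeR) at 8 h and 0.20 (SE 0.04, adjusted p = 0.0012) at 24 h. TIMP1, the member with the highest level per length, was the exception: it had 185, 164 and 171 CPM untreated, 139, 142 and 147 CPM at 8 h, and 139, 155 and 143 CPM at 24 h. It fell by 0.28 (SE 0.05, adjusted p = 0.00027, edgeR) and by 0.25 (SE 0.05, adjusted p = 0.00055) on the log2 scale, and the times did not differ beyond their spread (difference 0.03, SE 0.05, adjusted p = 0.66). As a share of the TIMP sum in CPM, TIMP3 went from 25.1% in untreated cells to 15.3% at 8 h and 34.2% at 24 h. TIMP1 went from 23.6% to 27.3% and 16.5%. Shares in CPM give more weight to longer genes and do not order the TIMPs by level. Per kb, TIMP1 was above TIMP3 in every group, at 119.9, 98.8 and 101 CPM against 39.9, 17.5 and 65.9 CPM.

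**Figure D3:**
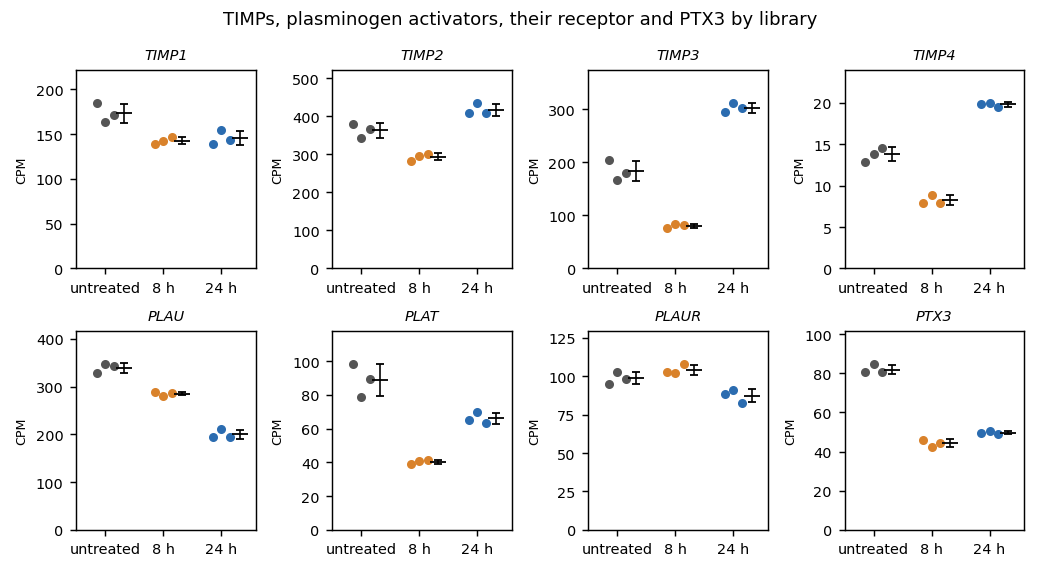
CPM (y axis, from 0) of the TIMPs, the plasminogen activators PLAU and PLAT, the receptor PLAUR and PTX3 in each library (points), with the mean and SD of 3 libraries beside them. TIMP2, TIMP3 and TIMP4 sit below the untreated range at 8 h and above it at 24 h, while PLAU goes down in steps, from a mean of 339 CPM to 285 and 200.1 CPM.

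TIMP1, TIMP3 and TIMP4 each lie inside a synapsin gene that runs on the opposite strand: TIMP1 (chromosome X, 47582408 to 47586789, GRCh38) within SYN1, TIMP3 (chromosome 22, 32801705 to 32863041) within SYN3, and TIMP4 (chromosome 3, 12153068 to 12158912) within SYN2. The authors counted by strand, and SYN1, SYN2 and SYN3 were at no more than 0.347, 0.187 and 0.111 CPM in any library. TIMP2 (chromosome 17, 78852977 to 78925387) shares exon sequence with CEP295NL on its own strand, which was at no more than 0.105 CPM. Reads in the shared sequence may have been counted for neither gene, so the level of TIMP2 may be understated.

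The 250 bases before the RefSeq start of these genes are given because 3 inhibitors that moved differently can be set side by side, TIMP1 against TIMP3 and TIMP4. They are from RefSeq on GRCh38.p14, 5′ to 3′ on the gene's strand. Capitals mark every match, on either strand, to an AP-1 pattern (TGANTCA), a metal response pattern (TGCNCNC) or a GC box (GGGCGG). The AP-1 and metal response patterns are looser than the usual sites. They allow any base after TGA or TGC, where the usual AP-1 site has C or G and the metal response core A or G. At their 3′ end the TIMP1 letters reach into the first exon of the longer GENCODE model.
TIMP1 (chrX:47582186-47582435, plus strand): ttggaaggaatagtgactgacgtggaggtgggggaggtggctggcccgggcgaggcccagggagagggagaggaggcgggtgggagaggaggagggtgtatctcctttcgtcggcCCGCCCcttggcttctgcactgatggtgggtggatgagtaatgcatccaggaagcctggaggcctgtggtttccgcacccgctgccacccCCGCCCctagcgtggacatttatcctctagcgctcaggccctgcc
TIMP3 (chr22:32801455-32801704, plus strand): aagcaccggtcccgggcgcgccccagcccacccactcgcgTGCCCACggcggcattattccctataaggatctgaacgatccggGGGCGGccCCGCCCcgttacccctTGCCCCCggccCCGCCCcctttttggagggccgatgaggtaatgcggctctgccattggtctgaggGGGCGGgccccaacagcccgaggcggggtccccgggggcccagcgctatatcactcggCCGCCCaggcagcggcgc
TIMP4 (chr3:12158913-12159162, minus strand): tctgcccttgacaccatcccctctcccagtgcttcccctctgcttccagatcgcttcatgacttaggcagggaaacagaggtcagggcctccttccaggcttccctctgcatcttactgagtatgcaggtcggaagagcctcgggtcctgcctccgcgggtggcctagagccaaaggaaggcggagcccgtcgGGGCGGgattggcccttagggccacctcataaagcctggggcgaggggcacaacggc

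The TIMP3 letters were 72.4% G or C and held 5 GC boxes and 2 matches to the loose metal response pattern. These were TGCCCAC and TGCCCCC, both with C after TGC, so neither is the usual core. TIMP1 (64.8% G or C) held 2 GC boxes and TIMP4 (62.8%) held 1, with no match to the metal response or AP-1 pattern in either. Over all 27305 genes with such a window, 42.3% held a GC box, 48.4% the metal response pattern and 6.60% the AP-1 pattern. Of the 42 members with a window, 61.9%, 57.1% and 11.9% did. A match describes the letters only and is not a binding site, and TIMP2 was not among the matched entries.

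Both plasminogen activators fell at both times, with opposite timing. PLAU had 328, 347 and 343 CPM in the untreated libraries, 288, 281 and 286 CPM at 8 h, and 195, 211 and 194 CPM at 24 h. The 3 groups were fully separated and the fall grew with time, from a log2 fold change of -0.25 (SE 0.04, adjusted p = 7.3e-05, edgeR) to -0.76 (SE 0.04, adjusted p = 5.3e-10). PLAT was lowest at 8 h, with 98.3, 78.9 and 89.4 CPM untreated, 39, 41 and 41.1 CPM at 8 h, and 65.3, 69.9 and 63.4 CPM at 24 h. From 8 h to 24 h PLAU went down by 0.51 and PLAT went up by 0.71 on the log2 scale (SE 0.04 and 0.07, adjusted p = 3.6e-08 and 2.7e-07, edgeR).

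PLAUR, the receptor that holds urokinase at the cell surface, changed little. It had 95.1, 103 and 98.4 CPM untreated, 103, 102 and 108 CPM at 8 h, and 88.2, 91.3 and 82.8 CPM at 24 h. The untreated and 8 h libraries overlapped (log2 0.08, SE 0.05, adjusted p = 0.17, edgeR), and at 24 h it was lower by a log2 fold change of -0.17 (SE 0.05, adjusted p = 0.0043). PTX3, a secreted pentraxin of innate immunity that also stabilises hyaluronan-rich matrix, fell at both times: it had 80.4, 84.7 and 80.6 CPM untreated, 46.1, 42.2 and 44.4 CPM at 8 h, and 49.6, 50.3 and 49.2 CPM at 24 h. That was 1.85-fold lower at 8 h (log2 -0.89, SE 0.04, adjusted p = 9.1e-10, edgeR) and 1.65-fold lower at 24 h (log2 -0.72, SE 0.04, adjusted p = 2.5e-09).

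Other genes of the plasmin system were taken from a list of 12, of which 11 were tested. At 8 h 3 were higher and 5 lower, and at 24 h 1 was higher and 5 lower, or 72.7% and 54.5% called against 49.6% and 52.5% of all genes. SERPINE2, a serpin that inhibits urokinase, rose at 8 h only, by a log2 fold change of 0.46 against 0.04 at 24 h, and differed between the times (-0.42, adjusted p = 0.00019, edgeR). PLGRKT, a plasminogen receptor, fell at both times (-0.38 and -0.46).

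Of 16 secreted MMPs, 5 were tested, and MMP19 and MMP11 made up 53.2% and 36.5% of their summed CPM in untreated cells. MMP19, which cuts basement membrane proteins, rose at both times: it had 7.86, 7.4 and 7.66 CPM untreated, 9.37, 9.91 and 9.39 CPM at 8 h, and 12.4, 11.9 and 10.6 CPM at 24 h. The groups were fully separated, with log2 fold changes of 0.32 (SE 0.08, adjusted p = 0.0032, edgeR) and 0.61 (SE 0.08, adjusted p = 7.8e-06). MMP11, which is activated inside the cell by furin-type proteases, fell at both times, with 6.05, 4.44 and 5.22 CPM untreated, 2.25, 2.12 and 2.58 CPM at 8 h, and 3.12, 3.85 and 3.34 CPM at 24 h. Its level at 24 h stood between the other two groups and above that at 8 h (log2 0.57, SE 0.15, adjusted p = 0.0038, edgeR).

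The study reports the gelatinases MMP2 and MMP9 as downregulated by TEPA in MDA-MB-231 cells, in its RNA sequencing and on protein blots. The blots were made at 24 h, for MMP2 from the supernatant of cells in serum-free medium. Its sequencing also gave lower MMP14, MMP11, MMP15 and PLAT and higher TIMP3 and TIMP4. These had the same directions here at 24 h, although TIMP3 and TIMP4 were lower at 8 h. In these counts the mRNA of MMP2 and of MMP9 was close to the detection limit. The counts of MMP2 were 13, 5 and 10 in untreated cells, then 1, 6 and 2 at 8 h, then 23, 19 and 13 at 24 h. MMP2 passed the filter only through its 24 h libraries, where it was highest. At 24 h it was higher than at 8 h (log2 2.38, SE 0.53, adjusted p = 0.0013, edgeR), and against untreated cells the change was -1.52 (SE 0.60, adjusted p = 0.046) at 8 h and 0.86 (SE 0.42, adjusted p = 0.099) at 24 h. The 8 h call was lost without any of 7 libraries, untreated replicates 1 and 3, 8 h replicates 1 and 3 and each of the 24 h libraries, with adjusted p-values from 0.055 to 0.18, and under DESeq2 (0.073) and the replicate block (0.07). Without 8 h replicate 2 it was -2.47, and without untreated replicate 1 the 24 h value was 1.23 with an adjusted p of 0.044. MMP9 had 19, 24 and 26 counts untreated, then 11, 17 and 28 at 8 h, and 26, 37 and 22 at 24 h, and the groups overlapped (log2 -0.20 and 0.22, adjusted p = 0.66 and 0.60, edgeR). The collagenase MMP1 was the only tested gene of the 9 MMPs clustered on chromosome 11q22, at 0.50 and 0.01 with adjusted p-values of 0.17 and 0.99.

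ADAMTS genes moved in both directions. At 8 h 4 of the 12 tested rose (ADAMTS1, ADAMTS6, ADAMTS7 and ADAMTS16) and 3 fell (ADAMTS9, ADAMTS12 and ADAMTS15), and at 24 h 4 rose and 2 fell, or 58.3% and 50% called against 49.6% and 52.5% of all genes, which also divided about evenly between higher and lower. ADAMTS1, which cuts versican and aggrecan, had 12.8, 18.9 and 16.5 CPM untreated, 36.7, 31.8 and 33.9 CPM at 8 h, and 20.6, 18.9 and 17.6 CPM at 24 h. ADAMTS6, a protease of the fibrillin-rich matrix, had 8.58, 13.7 and 11.1 CPM, then 25, 22.1 and 23.3 CPM, then 12.7, 11.6 and 13 CPM. Both were a little over doubled in the 8 h libraries, by 2.11-fold and 2.10-fold (log2 1.08 and 1.07, SE 0.10 and 0.11, adjusted p = 6.2e-07 and 1.9e-06, edgeR), and overlapped the untreated range at 24 h. Their 24 h values, 0.24 and 0.15 on the log2 scale (adjusted p = 0.069 and 0.30), became 0.38 and 0.34 with adjusted p-values of 0.005 and 0.011 without untreated replicate 2. ADAMTS1 at 24 h was also called without the expression filter (0.24, adjusted p = 0.0029) and with upper-quartile factors (0.27, adjusted p = 0.048).

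ADAMTS16 had the same course on a smaller scale, with 8.8, 11.1 and 9.59 CPM untreated, 14.9, 14.7 and 14.2 CPM at 8 h, and 8.71, 8.8 and 8.65 CPM at 24 h. The rise at 8 h was 0.56 on the log2 scale (SE 0.08, adjusted p = 3.5e-05, edgeR), and the 24 h value of -0.18 (adjusted p = 0.088) became -0.25 (adjusted p = 0.013) without untreated replicate 1. ADAMTS7, which cuts cartilage oligomeric matrix protein, rose at 8 h and was above untreated cells at 24 h: it had 8.93, 8.84 and 9.33 CPM, then 12.2, 14 and 14.3 CPM, then 10.8, 11.3 and 9.87 CPM. The log2 fold changes were 0.58 (SE 0.08, adjusted p = 2.4e-05, edgeR) and 0.24 (SE 0.08, adjusted p = 0.02), and the latter call was lost without 24 h replicate 1, 24 h replicate 2 or untreated replicate 2 (0.20 to 0.23, adjusted p = 0.055 to 0.078).

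ADAMTS12, the closest relative of ADAMTS7, moved the other way. It had 36.7, 33.8 and 34.9 CPM untreated, 22.1, 25.1 and 22.5 CPM at 8 h, and 45.1, 45.6 and 42.8 CPM at 24 h, with no overlap between any groups. The log2 fold change was -0.59 (SE 0.06, adjusted p = 7e-07, edgeR) at 8 h and 0.34 (SE 0.06, adjusted p = 8e-05) at 24 h. ADAMTS15, a versican-cutting member, had 32.1, 29 and 30.1 CPM untreated, 23.8, 26.5 and 27.1 CPM at 8 h, and 31, 32.1 and 31.2 CPM at 24 h. It was lower at 8 h alone (log2 -0.24, SE 0.06, adjusted p = 0.0037, edgeR). ADAMTS9, also a versican-cutting protease, was lower at both times, with 7.89, 6.74 and 8.01 CPM, then 6.57, 6.07 and 6.12 CPM, then 4.73, 4.8 and 4.53 CPM. The 24 h fall was 0.68 on the log2 scale (SE 0.09, adjusted p = 1.7e-05, edgeR), and the 8 h value of -0.27 (SE 0.09, adjusted p = 0.024) lost its call without any of 4 libraries, untreated replicates 1 and 3 and 8 h replicates 2 and 3 (-0.23 to -0.26, adjusted p = 0.061 to 0.088).

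Of the ADAMTS genes with fewer than 100 counts in every group, 3 changed at 24 h. ADAMTS4, a main aggrecan-cutting enzyme, had mean counts of 7.667 untreated, 9.667 at 8 h and 44.67 at 24 h. It passed the filter only through its 24 h libraries, so its rise there is not independent of the filter. The log2 fold change of ADAMTS4 was 2.45 (SE 0.32, adjusted p = 1.1e-05, edgeR), or 5.46-fold, with all 24 h libraries above the untreated ones. ADAMTS13, which cuts von Willebrand factor, rose by 0.67 (SE 0.18, adjusted p = 0.0059; 0.31 above 8 h, adjusted p = 0.15, or 0.49 and 0.047 without 8 h replicate 2), and ADAMTS14, which trims procollagen, fell by 1.34 (SE 0.39, adjusted p = 0.0094). ADAMTS14 passed the filter only through its untreated and 8 h libraries, where it was higher. Its fall at 24 h is therefore not independent of the filter. ADAMTS3, a further procollagen-trimming member, and ADAMTS17 were not called in any comparison.

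The letters before ADAMTS6 and ADAMTS12 are shown as those of a member that rose at 8 h and a member that fell there. They are 250 bases before the RefSeq start on GRCh38.p14, 5′ to 3′ on the gene's strand, with the same motifs in capitals, and those of ADAMTS12 reach at their 3′ end into the first exon of its GENCODE model. ADAMTS6 held 1 match to the metal response pattern, and ADAMTS12 held 1 match to each of the 3 motif patterns. The AP-1 letters of ADAMTS12, TGAATCA, start 84 bases before the start. They have A after TGA, which the usual AP-1 site does not.
ADAMTS6 (chr5:65481921-65482170, minus strand): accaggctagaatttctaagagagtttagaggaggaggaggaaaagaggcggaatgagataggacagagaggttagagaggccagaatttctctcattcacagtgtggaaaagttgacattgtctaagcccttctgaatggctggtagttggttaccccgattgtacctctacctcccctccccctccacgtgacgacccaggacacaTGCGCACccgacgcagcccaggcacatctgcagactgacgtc
ADAMTS12 (chr5:33891991-33892240, minus strand): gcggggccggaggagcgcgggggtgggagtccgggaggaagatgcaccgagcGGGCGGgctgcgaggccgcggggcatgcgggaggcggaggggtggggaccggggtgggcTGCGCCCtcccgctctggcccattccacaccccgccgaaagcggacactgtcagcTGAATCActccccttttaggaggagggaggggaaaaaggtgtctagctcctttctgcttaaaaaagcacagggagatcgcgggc

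Among membrane MMPs, MMP14 dominated. This activator of MMP2 had 439.7, 387 and 389 CPM untreated, 340.4, 346 and 343 CPM at 8 h, and 338, 360.3 and 329 CPM at 24 h. The treated libraries were all below the untreated ones at either time, and the times did not differ beyond their spread (log2 0.00, SE 0.05, adjusted p = 0.98, edgeR). MMP15, a membrane MMP related to MMP14, fell more: it had 6.88, 5.25 and 5.68 CPM untreated, 2.85, 1.93 and 2.58 CPM at 8 h, and 1.75, 1.83 and 1.84 CPM at 24 h. That was 2.41-fold lower at 8 h and 3.29-fold lower at 24 h (log2 -1.27 and -1.72, SE 0.14 and 0.15, adjusted p = 3.2e-06 and 1.2e-07, edgeR). Its further fall between the times (-0.45, SE 0.16, adjusted p = 0.03) lost its call under DESeq2 (adjusted p = 0.057) and without 8 h replicate 1 or 3 or any single 24 h library (adjusted p = 0.054 to 0.15).

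MMP16, a further membrane MMP, rose at 8 h and fell at 24 h. Its values were 6.48, 7.66 and 7.81 CPM untreated, 10.3, 8.39 and 8.65 CPM at 8 h, and 5.2, 5.35 and 7.01 CPM at 24 h. The 24 h libraries were all below those of 8 h (log2 -0.65, SE 0.12, adjusted p = 0.00026, edgeR). Against untreated cells the changes were smaller, 0.32 (SE 0.12, adjusted p = 0.036) and -0.34 (SE 0.12, adjusted p = 0.029). The 8 h call was lost without untreated replicate 1 or 8 h replicate 1 or 3 (0.21 to 0.35, adjusted p = 0.052 to 0.19), and the 24 h call without untreated replicate 2 or 3 or 24 h replicate 1 or 2 (-0.25 to -0.30, adjusted p = 0.075 to 0.14). MMP24, at fewer than 100 counts, passed the filter only with its treated libraries, where it was higher. It rose 2.23-fold and 2.25-fold (log2 1.16 and 1.17, SE 0.30 and 0.29, adjusted p = 0.004 and 0.0032, edgeR). MMP17 was not called. The difference of MMP17 between the times (0.30, adjusted p = 0.056) passed with RLE or upper-quartile factors, with a minimum of 10 counts in every library and with only the groups compared (adjusted p = 0.036 to 0.048).

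The ADAMs of the protease type were mostly lower at 8 h: 4 of the 7 tested fell and 2 rose, while at 24 h 1 fell and 2 rose, or 85.7% and 42.9% called against 49.6% and 52.5% of all genes. ADAM8, an ADAM known from leukocytes and invasive breast cancer, fell most. It had 244, 207 and 214 CPM in the untreated libraries, 128, 138 and 138 CPM at 8 h, and 209.8, 224 and 200.2 CPM at 24 h. The log2 fold change was -0.72 at 8 h (SE 0.06, adjusted p = 1.1e-07, edgeR) and -0.07 at 24 h (SE 0.06, adjusted p = 0.32), where the libraries overlapped the untreated ones.

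ADAM10 and ADAM17, the main sheddases of Notch, EGFR ligands and TNF, took the same course. ADAM10 had 155, 154 and 155 CPM untreated, 122, 121 and 114 CPM at 8 h, and 148, 143 and 160.1 CPM at 24 h. ADAM17 had 65.9, 57.2 and 58.4 CPM, then 50.9, 48.3 and 50.1 CPM, then 58.2, 61.4 and 59.6 CPM. They fell by 0.38 and 0.28 on the log2 scale at 8 h (SE 0.04 and 0.05, adjusted p = 4e-06 and 0.00037, edgeR), and their 24 h values were -0.04 and -0.02 (adjusted p = 0.49 and 0.79). ADAM12, which sheds EGFR ligands, fell at 8 h and rose at 24 h, with 4.24, 4.82 and 4.74 CPM untreated, 3.32, 3.92 and 3.27 CPM at 8 h, and 5.59, 5.93 and 5.76 CPM at 24 h. The log2 fold changes were -0.39 (SE 0.11, adjusted p = 0.0065, edgeR) and 0.32 (SE 0.10, adjusted p = 0.014).

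The other 3 were steady or moved upwards at 8 h. ADAM15, which carries an integrin-binding site, had 241, 235 and 244 CPM untreated, 264, 264 and 279 CPM at 8 h, and 272, 289 and 258 CPM at 24 h, and rose by about the same amount at both times (log2 0.17 and 0.19, SE 0.04 at each, adjusted p = 0.0045 and 0.0016, edgeR). ADAM19, which sheds neuregulin, had 76.5, 76.3 and 73.1 CPM, then 80.9, 86.4 and 84 CPM, then 67.3, 67.6 and 67.6 CPM. It was the only protease-type ADAM that rose at 8 h and fell at 24 h (log2 0.15 and -0.16, SE 0.04 at each, adjusted p = 0.0041 and 0.0032, edgeR). ADAM9, a widely expressed sheddase, had 259.9, 269 and 267 CPM untreated, 264, 251 and 249.8 CPM at 8 h, and 266, 269 and 283 CPM at 24 h. No difference from untreated cells was called at either time (log2 -0.06 and 0.04, adjusted p = 0.24 and 0.41), and its difference between the times (0.09, SE 0.04, adjusted p = 0.043) lost its call under the replicate block and without 8 h replicate 2 or 3 or 24 h replicate 3 (adjusted p = 0.12 to 0.16 without these libraries).

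Of the ADAMs without protease activity, which act in adhesion and at synapses, 3 of 8 were tested. ADAM22, a receptor of the LGI proteins, was lower at both times, with 7.04, 6.52 and 6.75 CPM untreated, 5.35, 4.81 and 4.92 CPM at 8 h, and 4.61, 5.05 and 4.09 CPM at 24 h. All treated libraries were below the untreated ones (log2 -0.43 and -0.56, SE 0.10 at each, adjusted p = 0.002 and 0.00018, edgeR). ADAM11 and ADAM23 were not called in any comparison; for ADAM23 the difference between the times (-0.40, adjusted p = 0.059) passed without untreated replicate 1, 8 h replicate 2 or 24 h replicate 3 (adjusted p = 0.018 to 0.049).

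Genes that regulate these proteases were taken from further lists. Of 14 activators and other regulators of MMPs, 10 were tested, with 3 higher and 2 lower at 8 h and 3 higher and 1 lower at 24 h, or 50% and 40% called against 49.6% and 52.5% of all genes. THBS1, a matrix protein that binds MMPs and TGF-β, rose from 580.1 ± 65.2 CPM to 1044 ± 14.5 at 8 h and 826 ± 29.5 at 24 h (SD, n = 3; log2 0.85 and 0.51, adjusted p = 3.2e-08 and 3.6e-06, edgeR). Of the proprotein convertases, which cut the precursors of membrane MMPs and ADAMs, PCSK7 rose at both times (0.58 and 0.26) and PCSK5 fell at both (-0.60 and -0.43).

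All 9 partners of ADAM10 and ADAM17 were tested, with 2 higher and 3 lower at 8 h and 3 lower at 24 h, or 55.6% and 33.3% called against the same 49.6% and 52.5%. Of the tetraspanins that carry ADAM10, TSPAN15 fell at 8 h (log2 -0.74, adjusted p = 1.9e-05, edgeR) and TSPAN33 rose there (0.66, adjusted p = 2.5e-05), while TSPAN10 fell at 24 h (-0.83, adjusted p = 0.0013). The 24 h value of TSPAN15, -0.27 (adjusted p = 0.031), lost its call without 24 h replicate 1 or 3 and without untreated replicate 1, where it was -0.12. TSPAN10 also differed between the times (-0.56, adjusted p = 0.02), which lost its call without 24 h replicate 1 or 3 or 8 h replicate 2, where it was -0.37.

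Among 18 other enzymes that degrade the extracellular matrix, proteases apart from the heparan sulfate-cutting HPSE, 12 were tested. At 8 h 1 was higher and 4 were lower, and at 24 h 3 moved in each direction, or 41.7% and 50% called against 49.6% and 52.5%. CTSK, the collagen-cutting cathepsin K, rose at both times (log2 1.09 and 0.84, adjusted p = 9.7e-06 and 0.00011, edgeR), with 1.87 ± 0.18 CPM untreated, 4 ± 0.387 at 8 h and 3.35 ± 0.407 at 24 h (SD, n = 3). Cathepsin L (CTSL) fell at 24 h alone, from 139 ± 0.879 CPM to 94 ± 0.968 (SD, n = 3; log2 -0.56, adjusted p = 2.5e-09, edgeR), and cathepsin S (CTSS) rose there by 0.63. ADAMTS-like proteins, which share the accessory domains of ADAMTS proteases and lack the protease domain, were tested for 6 of 7, with 3 higher and 2 lower at 8 h and 1 lower at 24 h, or 83.3% and 16.7% called against 49.6% and 52.5%. THSD4 fell at both times (log2 -0.84 and -0.94, adjusted p = 6.6e-07 and 1.3e-07, edgeR), and ADAMTSL1 and ADAMTSL4 rose at 8 h (0.53 and 0.45) with 24 h values of -0.07 and -0.12.

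Of the 33 members that did not pass the filter, 13 had no count in any library, 22 had at most 3 in every library, and the highest count of any was 16, for MMP3 at 8 h. They were the secreted MMP3, MMP7, MMP8, MMP10, MMP12, MMP13, MMP20, MMP21, MMP26, MMP27 and MMP28, the membrane MMP23A, MMP23B and MMP25, the secreted ADAMTS2, ADAMTS5, ADAMTS8, ADAMTS10, ADAMTS18, ADAMTS19 and ADAMTS20, and ADAM2, ADAM5, ADAM6, ADAM7, ADAM18, ADAM20, ADAM21, ADAM28, ADAM29, ADAM30, ADAM32 and ADAM33. In the fit without the filter, 3 of them were called in at least 1 comparison, and these were chosen after their values were seen. MMP3, a stromelysin, had 5, 4 and 3 counts untreated, then 8, 16 and 13 at 8 h, then 7, 3 and 1 at 24 h, and was higher at 8 h than in either other group (log2 1.68 against untreated and -1.91 from 8 h to 24 h, adjusted p = 0.015 and 0.0043, edgeR). ADAM21 had 2, 1 and 2 counts, then 2, 1 and 0, then 7, 8 and 9, and was higher at 24 h (2.11 and 2.72 above untreated and 8 h, adjusted p = 0.036 and 0.0097). MMP23B had 3, 0 and 4 counts untreated and 9, 3 and 12 at 8 h, where the libraries overlapped (1.79, adjusted p = 0.042). For the rest no change was called at this depth. MMP23A and MMP23B are duplicated copies of one gene, so their split of counts is uncertain.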

How the data were processed

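RNA sequencing was done by the study on stranded mRNA libraries of MDA-MB-231 cells. The authors checked reads with FastQC, aligned them to hg38 with HISAT2 and counted them by gene name over exons, with strand used, in featureCounts; the submitters' processing notes name these tools without versions. They deposited raw counts, 1 column for each library, without normalization.

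The members and lists were chosen with earlier results of these data known. In R 4.3.3, edgeR 4.0.16 kept 16556 genes by filterByExpr (minimum count 10), scaled libraries with TMM factors (0.978 to 1.04) and fitted all 9 libraries in 1 quasi-likelihood model. P-values were adjusted over all genes tested. Standard errors were taken as the absolute log2 fold change over the root of the F statistic. Untreated replicates 1 and 2 differed most within a group, with a chi-square per degree of freedom of 21.2 between their counts. It was at most 7.57 within the treated groups. The model shares its estimate of spread over the groups, so standard errors against untreated cells may be too small. The biological coefficient of variation was 0.0481, and 3 libraries against 3 cannot give a permutation p under 0.1. CPM use TMM-scaled library sizes, and exon length is the union of a gene's exons in GENCODE 44. Members with a mean of at least 100 counts in a group and a call in any comparison, the TIMPs, MMP2 and MMP9 are given by library. From each other list, up to 3 called genes at that level with the largest log2 fold change are named. A gene that meets this rule is not reported here. Alternatives were DESeq2 1.42.0, RLE or upper-quartile scaling, 2 other filters, 2 fold limits, only the groups compared, the replicate block and leaving out each library. The procedure was tested on simulated counts.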

Additional observations from a re-analysis of the deposited data

Results flagged for a closer look

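For 10 members the changes against untreated cells at 8 h and at 24 h of TEPA differed. They either were called in opposite directions or were more than 1 apart on the log2 scale. Without an untreated group for each time, TEPA and time in culture cannot be told apart in this difference. That is 25% of the 40 members, against 13.3% of all genes tested. The difference was tested as 24 h against 8 h in edgeR, with adjustment over all 16556 genes tested, and is given as the log2 effect at 24 h minus that at 8 h. TIMP3 had the smallest adjusted p, at 1.91 (adjusted p = 1.5e-11), followed by TIMP4 at 1.27 (1.6e-09), ADAMTS12 at 0.94 (3.3e-09) and TIMP2 at 0.51 (1.3e-07). ADAM19 had -0.31 (6.6e-06), ADAM12 had 0.72 (3e-05) and MMP16 had -0.65 (0.00026). Each of these 7 was called in opposite directions at the 2 times, although both calls of MMP16 against untreated cells were lost when single libraries were left out. ADAMTS4 had 2.04 (4.2e-05), ADAMTS14 had -1.49 (0.0042) and MMP2 had 2.38 (0.0013), all at fewer than 100 counts in every group. ADAMTS4 and MMP2 passed the filter only through their 24 h libraries, and ADAMTS14 only through the other groups. In each case these were the groups where the gene was higher, so these differences are not independent of the filter. All 24 h libraries lay on one side of all 8 h libraries for each of the 10 members.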

How the results depend on the processing

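Of the counts of called members, those that moved by more than 1.5 times did so under the fold limits. Beyond a log2 fold change of 0.5 there were 5 higher and 9 lower members at 8 h, and 6 and 7 at 24 h. For 24 h against 8 h there were 10 and 6. Beyond 1 there were 3 and 5, 2 and 2, and 4 and 1. Both limits take in ADAMTS4, ADAMTS14, MMP24 and MMP2, which passed the filter only with the groups where they were higher. Leaving out 1 library in turn gave 8 to 10 higher and 17 to 19 lower at 8 h, 10 to 12 and 12 to 14 at 24 h, and 15 to 16 and 10 to 13 between the times. With 1 library left out of a group, 2 remain. Over all alternatives, 49 of 1906 recomputed member values changed their call, 37 of them with 1 library left out, and they belonged to 12 members. No called value changed sign, and 31 values that were not called did. The scaling moved the median of all genes by at most 0.026 on the log2 scale. Of 198 recomputed ratios of class sums, 0 moved by 1 SD or more.

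The replicate numbers did not pair the libraries: over 9 pairs with the same number, deviations from the group means correlated between -0.08 and 0.038. With the replicate block, MMP2 at 8 h (-1.52, adjusted p = 0.07) and ADAM9 between the times (0.09, adjusted p = 0.07) were no longer called in edgeR, ADAM23 between the times was (-0.39, adjusted p = 0.041), and among the list genes TSPAN15 at 24 h was not (-0.27, adjusted p = 0.051). DESeq2 did not call MMP2 at 8 h (adjusted p = 0.073) or MMP15 between the times (0.057). Depth limits the genes below 1 CPM: standard errors of their fold changes are wide. Without the filter, 11 members were higher at 8 h, among them MMP3 and MMP23B, and 13 were lower from 8 h to 24 h, among them MMP3 and ADAM23.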
